A study of Ovis aries with 16 samples.

Results

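Estradiol was compared with no estradiol in the hypothalamus of all 16 fetal sheep of the series, 8 with estradiol and 8 without, 1 fetus per array, to find genes that stood higher or lower with the hormone whether or not the brain had been deprived of blood. Control fetuses had a sham occlusion; estradiol fetuses had 250 µg of estradiol per day for 5 days and a sham occlusion; BCO fetuses had the brachiocephalic artery, which feeds the head and forelimbs, closed for 10 min; estradiol+BCO fetuses had both. There were 4 fetuses in each group, at 124 to 128 days of a pregnancy that lasts about 147 days, all with chronic catheters, and tissue was taken 1 h after the occlusion or sham occlusion began. The labels name no vehicle for the fetuses without estradiol. The estradiol effect was estimated separately in the sham-occluded fetuses (estradiol minus control) and in the occluded fetuses (estradiol+BCO minus BCO), and the 2 estimates were averaged.

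Estradiol is the main circulating estrogen. It enters cells and binds the estrogen receptors alpha (ESR1) and beta (ESR2), transcription factors that act on the promoters and enhancers of target genes, and it also acts at the cell membrane through kinase signaling. In the hypothalamus its receptors lie in neurons that govern reproduction, stress hormone release, feeding and blood pressure, and in the last part of gestation estrogen made by the placenta rises in the sheep fetus as the stress axis matures toward birth.

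A probe's level is given as the log2 of its processed signal minus the 75th percentile of its array, so that 1 unit is a factor of 2 and a level below 0 is dimmer than that percentile. That percentile was 2050 to 2946 signal units, and 77.3% to 86.4% of probes were well above background on untreated arrays against 81.8% to 85.8% on estradiol arrays. Levels of different probes are not comparable. Of 28 hypothalamic neuropeptide genes sought, 13 were measured and 11 were well above background on all 16 arrays, among them oxytocin, galanin and pro-opiomelanocortin. No general neuron marker of the list sought was measured by a named probe. The arrays lay on 2 slides with 2 arrays of each group on each, and slide was a term of the model. Slide 2 differed from slide 1 at 860 probes (762 higher, 98 lower; adjusted p under 0.05, limma).

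No probe passed the test for the average estradiol effect. At a Benjamini-Hochberg adjusted p under 0.05 in limma, 0 of 12937 tested probes were called, the smallest adjusted p was 0.609, and 897 probes (6.93%) had an unadjusted p under 0.05, of which 304 were higher with estradiol (2.35%) and 593 lower (4.58%). That split moved with the setting. The higher share was 33.9% with the 75th percentile and 48.6% with each array centred on its median. With the 75th percentile kept, it was 45.9% with another background correction (normexp), 42.8% on slide 1 alone and 43.8% on slide 2 alone. With 1 array left out it ran from 27.8% (control replicate 3) to 45.6% (BCO replicate 2). Everything below that is named as higher or lower in both strata is therefore a description of direction and size, with the adjusted p beside it. Estradiol against control also gave 0 called probes in limma with 517 (4%) at an unadjusted p under 0.05, and estradiol+BCO against BCO gave 0 with 1474 (11.4%). In limma without estradiol replicate 4 the average had 1 called probe, and estradiol+BCO against BCO had 6 without BCO replicate 1, 6 without BCO replicate 2 and 2 without BCO replicate 4.

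A probe was counted as going the same way when both estimates had the same sign, each exceeded its own standard error, and the average had an unadjusted p under 0.05. This held for 554 of 12937 probes (4.28%), 162 higher (1.25%) and 392 lower (3.03%). Their average effects were small, with a median size of 0.33 log2 units and a range of 0.13 to 1.75, and 14 exceeded 1. Of 1318 tested probes with a gene name 72 were among them (24 higher, 48 lower, for 61 names), or 5.46%, against 482 of 11619 unnamed probes, or 4.15%. Without BCO replicate 1 the count was 945, on slide 1 alone 346, and with normexp background correction, which shrinks differences between dim spots, it was 289.

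Over all tested probes the estimates in the sham-occluded and the occluded fetuses were close to unrelated. Pearson's r across the 12937 probes, which are not independent replicates, was 0.03, and 6498 probes (50.2%) had the same sign in both. The estimates share no array but share the slides and the scaling. The standard deviation of the estimates over probes was 0.27 in sham-occluded and 0.34 in occluded fetuses.

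**Figure D1:**
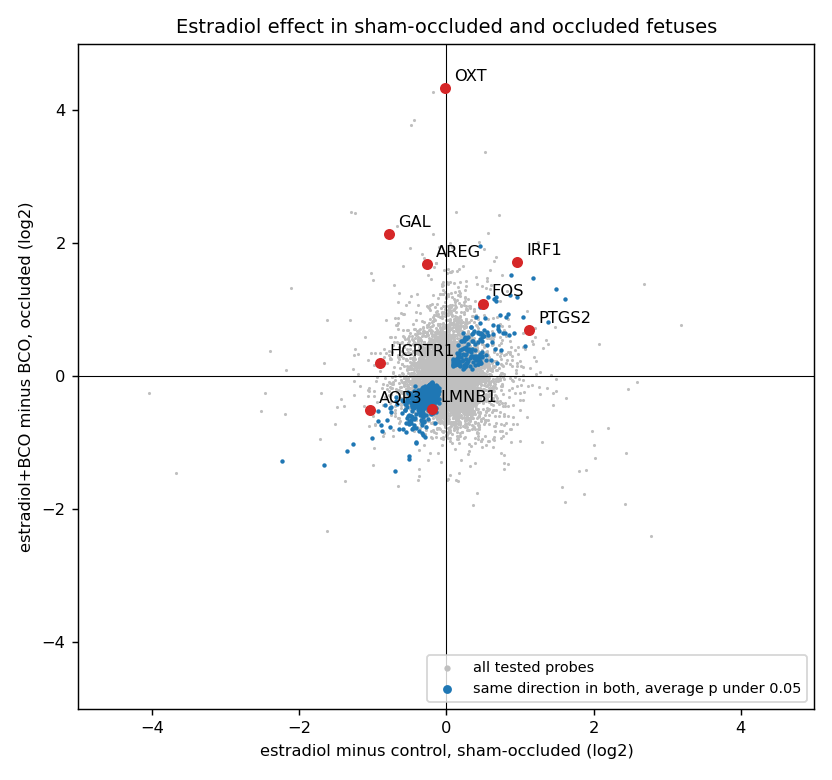
Each dot is 1 of the 12937 tested probes, with the estradiol effect in sham-occluded fetuses on the x axis and in occluded fetuses on the y axis, both in log2 units and each from 4 against 4 arrays. Blue dots are the 554 probes of 1 direction in both; among the genes named in red, FOS, IRF1 and PTGS2 lie on the higher side of both axes and AQP3 and LMNB1 on the lower side, while OXT, GAL and AREG lie high on the y axis only.

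LMNB1, which encodes lamin B1 of the nuclear envelope, was lower with estradiol in both strata and was the 1 named gene with no overlap in either. Probes are shown for it because its 2 probes cover neighbouring stretches of the transcript and gave the same direction. Each is printed 5′ to 3′ as in the deposited files, with the 30 bases that both contain in capitals.
LMNB1 A_70_P028306: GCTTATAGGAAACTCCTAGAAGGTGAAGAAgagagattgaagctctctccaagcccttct
LMNB1 A_70_P028307: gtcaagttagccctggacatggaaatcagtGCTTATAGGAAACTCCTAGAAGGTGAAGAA

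On probe A_70_P028307 the control arrays read -1.97, -1.94, -1.63 and -2.01 and the estradiol arrays -2.14, -2.01, -2.08 and -2.11. The BCO arrays read -1.52, -1.46, -1.66 and -1.74 and the estradiol+BCO arrays -2.06, -2.16, -2.17 and -1.95. All 4 estradiol arrays lay below all 4 untreated arrays in each stratum, by a narrow margin in the sham-occluded fetuses. The average effect was -0.34 ± 0.07 (SE, 16 arrays), 1.27-fold lower, made of -0.20 ± 0.10 in sham-occluded and -0.49 ± 0.10 in occluded fetuses, with an adjusted p of 0.609 (limma). Probe A_70_P028306 gave -0.43 ± 0.09 (-0.31 and -0.55), with overlap in the sham-occluded fetuses. With normexp correction this second probe stood at -0.27 on average.

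Only 3 of 12937 probes (0.0232%) had no overlap in either stratum and lay on the same side, and all 3 were lower. Besides LMNB1 these were the unnamed probes A_70_P006386, at -0.32 ± 0.07 (SE), and A_70_P025071, at -0.24 ± 0.07. A_70_P006386 read 1.80 to 2.08 on the untreated and 1.36 to 1.79 on the estradiol-treated arrays, so that its highest treated array lay just under its lowest untreated one. Its effect was near the same size in sham-occluded (-0.32) and occluded (-0.33) fetuses. Centred on array medians, 1 probe in place of 3 had no overlap. The share of all probes with no overlap in a single stratum is not given. Where a gene is said to have no overlap in 1 stratum, that is therefore a description of its arrays only.

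ASPM, which encodes a spindle-pole protein of dividing neural progenitors, averaged -0.50 ± 0.16 (SE), with -0.35 in sham-occluded and -0.65 in occluded fetuses. FGFR3, a fibroblast growth factor receptor found in astrocytes and their progenitors, averaged -0.33 ± 0.10 with -0.35 and -0.32. The 2 strata gave near equal values on this FGFR3 probe (A_70_P031242), though not on its near-identical partner below. For ASPM the value was larger in occluded fetuses, a difference that was not called (adjusted p = 0.856, limma).

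The FGFR3 probes are printed because they are the same 59 bases (in capitals) shifted by 1 base, so that what differs between them is a difference between near-identical probes.
FGFR3 A_70_P031241: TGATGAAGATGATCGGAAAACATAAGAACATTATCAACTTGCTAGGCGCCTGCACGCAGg
FGFR3 A_70_P031242: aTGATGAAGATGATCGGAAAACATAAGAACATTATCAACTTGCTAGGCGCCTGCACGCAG

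A_70_P031242 read -4.48, -4.81, -4.92 and -4.98 on the control arrays and -5.27, -5.18, -5.03 and -5.09 on the estradiol arrays, with no overlap. It read -5.20, -4.97, -4.77 and -4.58 on the BCO arrays and -5.35, -5.18, -5.11 and -5.19 on the estradiol+BCO arrays, where BCO replicate 1 lay among the treated ones. The near-identical A_70_P031241 averaged -0.28 ± 0.13 (SE), with -0.18 in sham-occluded and -0.38 in occluded fetuses, and overlapped in both strata. With normexp correction the averages were -0.16 (A_70_P031242) and -0.09 (A_70_P031241) for FGFR3 and -0.29 for ASPM. A_70_P031242 then stood at -0.05 in sham-occluded and -0.27 in occluded fetuses. SMO, the signal transducer of the hedgehog pathway, averaged -0.24 ± 0.08 on 1 probe and -0.07 ± 0.07 on another that shares 33 bases with it, and -0.02 on the first with normexp correction. KIT, the stem cell factor receptor, averaged -0.53 ± 0.18 and -0.03 with normexp correction, on 12 arrays well above background.

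Of 10 cell cycle genes 4 were higher and 6 lower on average with a median of -0.03, beside a median of -0.01 over all probes. Of these, CCND3 (cyclin D3) was the 1 with an unadjusted p under 0.05, at 0.16 ± 0.06 (SE), with -0.02 in sham-occluded and 0.33 in occluded fetuses. Among 34 growth factors and receptors 12 were higher and 22 lower on average, with a median of -0.06, and none passed the test. The strata were opposed: in sham-occluded fetuses 22 were higher with a median of 0.10, and in occluded fetuses 24 were lower with a median of -0.20. Only 10 of the 34 had the same sign in both.

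FOS, the immediate early gene used as a mark of recently activated neurons and a target of estradiol in the uterus, was higher with estradiol on all 4 of its probes and in both strata. Of the probes, 3 are printed because together they sample separate stretches of the transcript, though all were read on the same fetuses. A_70_P016316 and A_70_P016317 are the same 59 bases (in capitals) shifted by 1 base. A_70_P001561 shares at most 8 bases in a row with either.
FOS A_70_P001561: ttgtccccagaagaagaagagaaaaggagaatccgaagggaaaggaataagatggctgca
FOS A_70_P016316: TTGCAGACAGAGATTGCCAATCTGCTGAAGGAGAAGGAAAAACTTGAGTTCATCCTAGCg
FOS A_70_P016317: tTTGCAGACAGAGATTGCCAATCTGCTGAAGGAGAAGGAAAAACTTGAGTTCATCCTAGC

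The brightest FOS probe, A_70_P026731, read -0.95, 0.0032, 0.40 and 0.07 on the control arrays and 0.47, -0.02, 1.02 and 0.02 on the estradiol arrays. It read -0.43, -0.41, 0.16 and 0.13 on the BCO arrays and 0.59, 0.81, 0.69 and 1.74 on the estradiol+BCO arrays. The sham-occluded groups overlapped, whereas every estradiol+BCO array lay above every BCO array. The average was 0.79 ± 0.19 (SE), 1.73-fold higher, with 0.49 ± 0.27 in sham-occluded and 1.1 ± 0.27 in occluded fetuses and an adjusted p of 0.625 (limma). The other probes averaged 0.65 ± 0.22, 0.63 ± 0.19 and 0.61 ± 0.20. On the brightest probe slide 1 alone gave 0.91 and slide 2 alone 0.68.

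The immediate early genes as a set were divided. Of 6 measured, FOS among them, 4 were higher and 2 lower, with a median of 0.03. JUNB, which pairs with FOS in the AP-1 transcription factor, stood at 0.42 ± 0.29 (SE), JUN (listed as C-JUN) at 0.04 ± 0.09 and the brightest EGR1 probe at -0.03 ± 0.10. A dimmer EGR1 probe, well above background on 10 arrays, read 0.89 ± 0.35, so the 2 EGR1 probes disagreed.

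**Figure D2:**
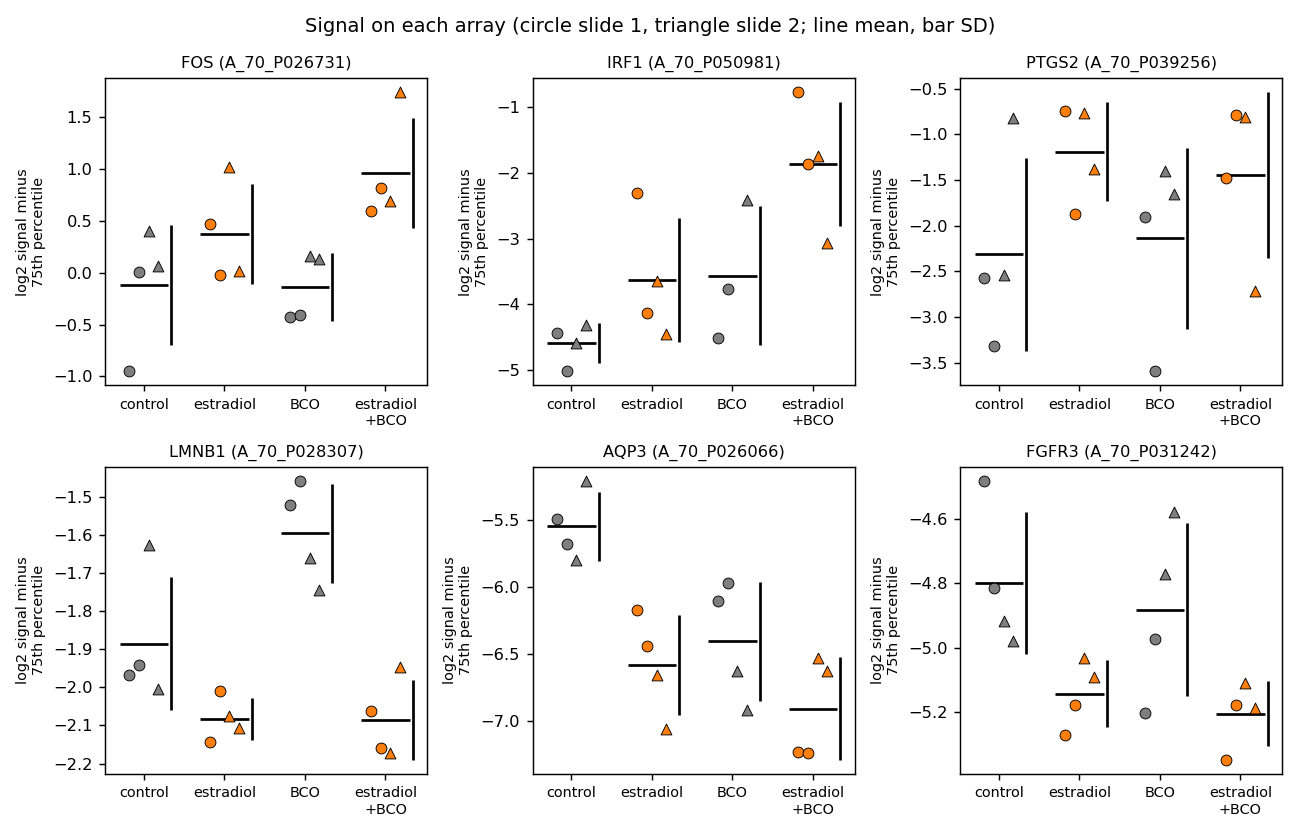
Each point is 1 array (circle slide 1, triangle slide 2; gray untreated, orange estradiol-treated) with its log2 signal minus the array's 75th percentile on the y axis, for 1 probe of each of 6 genes; the horizontal line is the group mean and the bar the SD of 4 arrays (3 for IRF1 in BCO). LMNB1 is divided in both strata, AQP3 and FGFR3 in the sham-occluded fetuses, and FOS in the occluded fetuses; IRF1 and PTGS2 overlap in both.

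Among inflammation and prostaglandin genes, IRF1 and PTGS2 were higher with estradiol in both strata, with a wide spread between arrays. IRF1, an interferon-induced transcription factor, read -4.44, -5.02, -4.60 and -4.32 in control and -2.31, -4.13, -3.64 and -4.45 in estradiol fetuses. It read -4.51, -3.76 and -2.42 in BCO fetuses, where the spot of replicate 3 was marked as an outlier and set to missing, and -0.77, -1.87, -1.75 and -3.07 in estradiol+BCO fetuses. Both pairs of groups overlapped. The average was 1.34 ± 0.41 (SE), 2.53-fold, with 0.96 and 1.72 in the 2 strata and an adjusted p of 0.677 (limma), but slide 1 alone gave 2.16 and slide 2 alone 0.21.

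PTGS2 encodes cyclooxygenase 2, the inducible enzyme of prostaglandin synthesis. Its probe A_70_P039256, well above background on all 16 arrays, averaged 0.91 ± 0.40 (SE), with 1.12 in sham-occluded and 0.69 in occluded fetuses. The control arrays read -2.58, -3.31, -2.54 and -0.82 and the estradiol arrays -0.74, -1.87, -0.77 and -1.38. The BCO arrays read -1.91, -3.59, -1.40 and -1.65 and the estradiol+BCO arrays -1.47, -0.79, -0.81 and -2.71. The groups overlapped in both strata through control replicate 4, BCO replicate 3 and estradiol+BCO replicate 4, all on slide 2, where the average was 0.19 against 1.63 on slide 1. A second probe, A_70_P039257, was well above background on 8 arrays and averaged 1.04 ± 0.35, or 0.27 with normexp correction. Of the 8 prostaglandin genes measured 4 were higher and 4 lower, with a median of -0.01.

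Of 27 inflammation genes 22 were higher and 5 lower on average, with a median of 0.21, beside 5954 of 12937 probes higher and a median of -0.01 over all probes. None passed the test. In the sham-occluded fetuses 14 of the 27 were higher with a median of 0.0022, and in the occluded fetuses 22 with a median of 0.42, and 19 had the same sign in both. On slide 1 alone the list's median was 0.34 and on slide 2 alone -0.0023. IL1RN, the interleukin 1 receptor antagonist, was called well above background in none of the BCO fetuses and in 2 estradiol+BCO fetuses, at -4.50 and -6.03. The other estradiol+BCO arrays read -7.18 and -7.55, near the BCO arrays at -8.19 to -7.47 (adjusted p = 0.371, limma). NFKB (listed under that name, a subunit of the NF-kappa-B transcription factor) went the other way on 1 probe, at -0.59 ± 0.19 (SE), on 12 arrays well above background. With normexp correction this probe stood at -0.08, with 0.08 in sham-occluded and -0.25 in occluded fetuses. Its partner with 59 shared bases overlapped in both strata. That partner read -7.65 to -6.74 in control, -7.79 to -6.92 in estradiol, -6.92 to -6.32 in BCO and -7.42 to -6.61 in estradiol+BCO fetuses. CCR10, a chemokine receptor, averaged 0.39 ± 0.11 on 1 probe and -0.16 ± 0.15 on another that shares 59 of its bases, so its direction was not settled.

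Markers of microglia and leukocytes were measured beside the inflammation genes. Of 25 sought 9 were measured, 8 of them well above background on all 16 arrays, with 5 higher and 4 lower and a median of 0.14. The mean level of the 9 per array ran from -3.96 to -3.54 in control, -3.85 to -3.60 in estradiol, -4.32 to -3.81 in BCO and -3.94 to -3.57 in estradiol+BCO fetuses. The 4 ranges overlapped. FCGR1A, an Fc receptor of monocytes and macrophages, was the member with the lowest p, at 0.56 ± 0.25 (SE). Estradiol+BCO replicate 1 read -2.24 on it, against -4.45 to -3.68 on the other estradiol+BCO arrays. BCO replicate 4 read -5.52, against -4.32 to -3.93 on the other BCO arrays. Apart from these arrays the occluded groups overlapped. In whole tissue, fewer cells of a type and less RNA per cell cannot be told apart, and the part of these cells in the inflammation result was not tested.

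The water channels AQP3 and AQP4 went opposite ways. AQP3, an aquaporin that also passes glycerol, read -5.49, -5.68, -5.80 and -5.21 in control and -6.17, -6.44, -6.66 and -7.06 in estradiol fetuses on A_70_P026066, with no overlap. It read -6.11, -5.97, -6.63 and -6.92 in BCO and -7.23, -7.24, -6.53 and -6.63 in estradiol+BCO fetuses, with overlap on slide 2. The average was -0.77 ± 0.18 (SE), 1.71-fold lower, with -1.04 and -0.50 in the 2 strata and an adjusted p of 0.611 (limma). The second probe, which shares 59 bases with it, gave -0.62 ± 0.19. These are dim spots, and normexp correction left -0.16 and -0.17.

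AQP4, the water channel of astrocyte endfeet, read 4.79 to 5.92. It averaged 0.40 ± 0.12 (SE), with 0.23 in sham-occluded and 0.56 in occluded fetuses, and the groups overlapped in both strata. Slide 1 alone gave 0.60 and slide 2 alone 0.19. Of the astrocyte markers sought, 16 in all, 8 were measured, each well above background on all arrays, and 4 were higher and 4 lower, with a median of -0.02. That average combined opposed strata. In sham-occluded fetuses 7 of the 8 were higher with a median of 0.27, and in occluded fetuses 6 were lower with a median of -0.24. Only 3 had the same sign in both. GFAP, the astrocyte filament protein, stood at 0.66 ± 0.27 in sham-occluded and -0.16 ± 0.27 in occluded fetuses. Of 15 water channel and ion transport genes 7 were higher and 8 lower.

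All 11 measured genes of glutamate and GABA transmission were lower on average, with a median of -0.12 and none passing the test. In the occluded fetuses all 11 were lower with a median of -0.33, whereas in the sham-occluded fetuses 6 were higher and the median was 0.03. MGLUR3 (metabotropic glutamate receptor 3, which the list does not hold) was lower in both strata, at -0.60 ± 0.16 (SE), with -0.38 and -0.82 in the 2 strata and an adjusted p of 0.625 (limma). It read -2.69, -3.17, -3.32 and -3.26 in control and -3.26, -3.97, -3.24 and -3.47 in estradiol fetuses, and -3.01, -2.11, -3.0 and -3.11 in BCO and -3.60, -3.32, -3.67 and -3.91 in estradiol+BCO fetuses. The groups overlapped in sham-occluded fetuses and were apart in occluded ones. GRIA3, an AMPA receptor subunit, averaged -0.25 ± 0.09 with -0.20 and -0.30, and -0.46 on slide 1 against -0.04 on slide 2. MGLUR1 (metabotropic glutamate receptor 1) averaged -0.36 ± 0.13 on 1 probe and -0.08 ± 0.11 on another. EAAT1 and EAAT2, the astrocyte glutamate transporters, were higher in sham-occluded (0.35 and 0.31) and lower in occluded fetuses (-0.45 and -0.63).

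Markers of tissue around the hypothalamus were set beside these results. Of 7 fibroblast and meningeal markers measured of 14 sought, 6 of them well above background on all arrays, 1 was higher and 6 lower on average, and in occluded fetuses all 7 were lower with a median of -0.39, as the glutamate and GABA genes were. Their mean level per array ran from -2.44 to -1.42 in control, -2.37 to -1.57 in estradiol, -2.29 to -1.59 in BCO and -2.85 to -1.91 in estradiol+BCO fetuses. Of 13 choroid plexus and ependymal markers 3 were measured and all 3 were lower on average. The transport protein transthyretin (TTR), abundant in choroid plexus, stood at -1.33 ± 0.72 (SE), with -1.72 and -0.94 in the 2 strata. Of 20 pituitary markers 8 were measured, 5 higher and 3 lower, with mean levels of -4.04 to -1.62 in control, -3.45 to -2.34 in estradiol, -4.54 to -3.69 in BCO and -4.69 to -3.32 in estradiol+BCO fetuses. The part of these tissues in the values of other genes was not tested.

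The remaining named genes of shared direction had other roles. ATP6V1B2, a subunit of the proton pump of lysosomes and synaptic vesicles, read 1.66 to 1.83 in control and 2.13 to 2.23 in estradiol fetuses, with no overlap, and 1.50 to 2.03 in BCO and 1.81 to 2.39 in estradiol+BCO fetuses. It averaged 0.37 ± 0.10 (SE) and its second probe, which shares at most 6 bases in a row with it, 0.36 ± 0.17. That second probe stood at 0.57 ± 0.25 in sham-occluded and 0.15 ± 0.25 in occluded fetuses, where estradiol+BCO replicate 2 read 2.91 and the other 3 arrays 1.77 to 1.93. EPAS1, the hypoxia-inducible factor HIF-2 alpha, averaged 0.36 ± 0.12 on 1 probe and -0.02 ± 0.13 on another with 59 bases in common, and 0.19 on the first with normexp correction. ATXN2L, an RNA-binding protein of stress granules, averaged 0.49 ± 0.15 and 0.36 ± 0.15 on its 2 probes, which share 59 bases. With normexp correction they stood at 0.18 and 0.14. PRND, which encodes the prion-like protein doppel, averaged -0.39 ± 0.10 on 1 probe, or -0.14 with normexp correction, and 0.12 ± 0.28 on the other.

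Among receptors and hormones, SST1 (listed under that name, a somatostatin receptor) averaged -0.22 ± 0.08 (SE) on 1 probe and 0.05 ± 0.08 on another with 59 shared bases. The leptin gene LEP averaged -0.29 ± 0.13 and -0.46 ± 0.19 on 2 probes that also share 59 bases. PRNT, a prion-family transcript, could not be given a direction. Its probes share 59 bases. The first was at least 1.07-fold higher in estradiol+BCO fetuses, where 2 arrays were well above background, than in BCO fetuses, where none was (adjusted p = 0.295, limma). On the processed signals the second was at least 1.35-fold lower in estradiol than in control fetuses by the same bound (adjusted p = 0.982, limma). No estradiol array was well above background on it, and only 2 of 4 control arrays were. With normexp correction the second stood at 0.16 in sham-occluded fetuses, the other way, and the first at 0.15 in occluded ones. SLC6A4, the serotonin transporter, was well above background on 5 arrays, none of them from an occluded fetus.

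**Figure D3:**
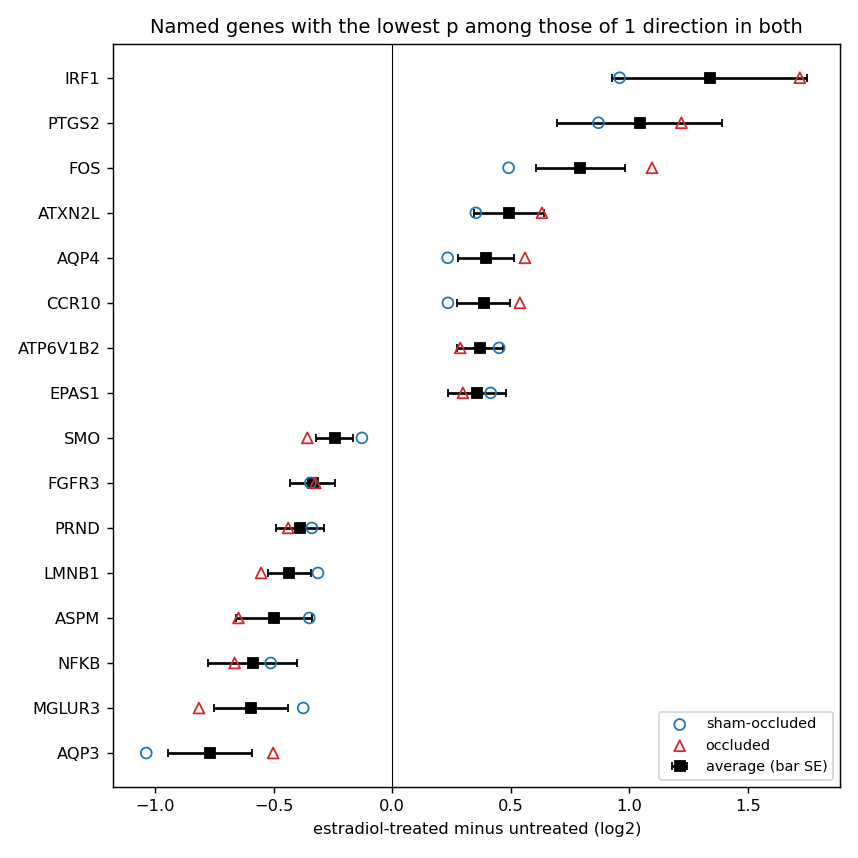
Black squares are the average estradiol effect with its SE, and open circles and triangles the effects in sham-occluded and occluded fetuses, in log2 units on the x axis, for named genes of shared direction (1 probe each, the one with the lowest p). The averages run from -0.77 for AQP3 to 1.34 for IRF1; PRNT and SLC6A4 are left out because some of their groups were not above background.

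The estrogen receptors and the genes known from other tissues as estrogen targets were divided. ESR1 stood at 0.38 ± 0.29 (SE) on average, with -0.16 ± 0.41 in sham-occluded and 0.93 ± 0.41 in occluded fetuses, and -0.07 on slide 2 alone. ESR2 stood at 0.21 ± 0.23, and -0.04 on slide 1 alone. It was not well above background on control replicate 1 and BCO replicates 1 and 4, all untreated arrays. PGR, the progesterone receptor, stood at -0.10 ± 0.28 with arrays from -5.53 to -3.79. Of 14 classical estrogen-induced genes measured 6 were higher and 8 lower with a median of -0.02, 4 had the same sign in both strata, and FOS alone went the same way by the rule above. OXTR, the oxytocin receptor, read -0.01 ± 0.33 on its brighter probe and 0.71 ± 0.42 on the dimmer one. The brighter probe was not well above background on control replicate 2, BCO replicate 4 and estradiol+BCO replicate 4. For the dimmer probe those arrays were control replicates 1 and 2, BCO replicates 1, 2 and 4 and estradiol+BCO replicates 1 and 3. NR3C1, the glucocorticoid receptor, stood at -0.15 ± 0.13 and at 0.19 on slide 2 alone. CRHBP, which binds corticotropin-releasing hormone, stood at 0.32 ± 0.20, with -0.03 in sham-occluded and 0.67 in occluded fetuses.

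For several genes the average combined unlike values. OXT, the oxytocin gene, had the highest average of the genes given here, at 2.16 ± 0.64 (SE), but stood at -0.01 ± 0.90 in sham-occluded and 4.33 ± 0.90 in occluded fetuses. Its arrays read 1.83, 2.56, 1.87 and -1.13 in control, 0.53, 1.26, 1.60 and 1.69 in estradiol, 1.41, -2.50, -1.23 and -3.38 in BCO, and 2.77, 2.33, 3.06 and 3.48 in estradiol+BCO fetuses. The 3 lowest BCO arrays lay below every other array. AREG, the growth factor amphiregulin, averaged 0.71 ± 0.21, with -0.26 in sham-occluded and 1.69 in occluded fetuses. The difference between strata was 4.35 ± 1.28 for OXT (adjusted p = 0.323, limma) and 1.95 ± 0.41 for AREG (adjusted p = 0.137), so neither was called.

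The neuropeptide list had that form as a whole. Of 13 genes 11 were higher on average with a median of 0.35, but in sham-occluded fetuses 4 were higher with a median of -0.31, in occluded fetuses 11 with a median of 1.23, and 6 had the same sign in both. None passed the test, and the list's median was 1.02 on slide 1 alone and -0.14 on slide 2 alone. Its mean level per array ran from -0.93 to -0.33 in control, -2.09 to 0.26 in estradiol, -3.50 to -2.30 in BCO and -2.29 to -0.52 in estradiol+BCO fetuses. Every BCO array was below every control array. The 3 measured transcription factors of hypothalamic nuclei, of 24 sought and 2 of them well above background on all arrays, moved with it: their mean level per array ran from -5.19 to -4.50 in control, -5.71 to -4.08 in estradiol, -6.46 to -5.34 in BCO and -5.58 to -4.49 in estradiol+BCO fetuses, again with no overlap between BCO and control. Their median estradiol effect was -0.07 in sham-occluded and 0.59 in occluded fetuses, and their part in the neuropeptide values was not tested. BCO arrays wholly below control arrays were not particular to these lists. The same held for the estrogen and progesterone receptors and coregulators, the classical estrogen-induced genes and the hypothalamus-pituitary-adrenal genes. It also held, by a narrow margin, for the 1 measured marker of thalamus, cortex and telencephalon. GAL (galanin) stood at -0.78 and 2.14 in the 2 strata, and NPVF (the precursor of gonadotropin-inhibitory RFamide peptides) at -1.24 and 2.46. SST (somatostatin) stood at 0.0041 and 1.23, and POMC at 0.02 and 0.68. GNRH1 (gonadotropin-releasing hormone) stood at -0.34 ± 1.09 and 1.84 ± 1.09, with BCO replicates 2 and 4 not well above background, and its average of 0.75 became 0.23 with normexp correction. TAC3 (neurokinin B) stood at 0.34 ± 0.40 and 0.30 ± 0.40, but estradiol replicate 2 read -0.20 against -2.41 to -2.15 on the other estradiol arrays, and without it the average was 0.07 in place of 0.32. HCRTR1, an orexin receptor, was lower with no overlap in sham-occluded fetuses (-0.90 ± 0.21) and stood at 0.20 ± 0.21 in occluded ones. CPT1A, the mitochondrial carrier enzyme for fatty acids, stood at -0.08 ± 0.14 and -0.68 ± 0.14.

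**Figure D4:**
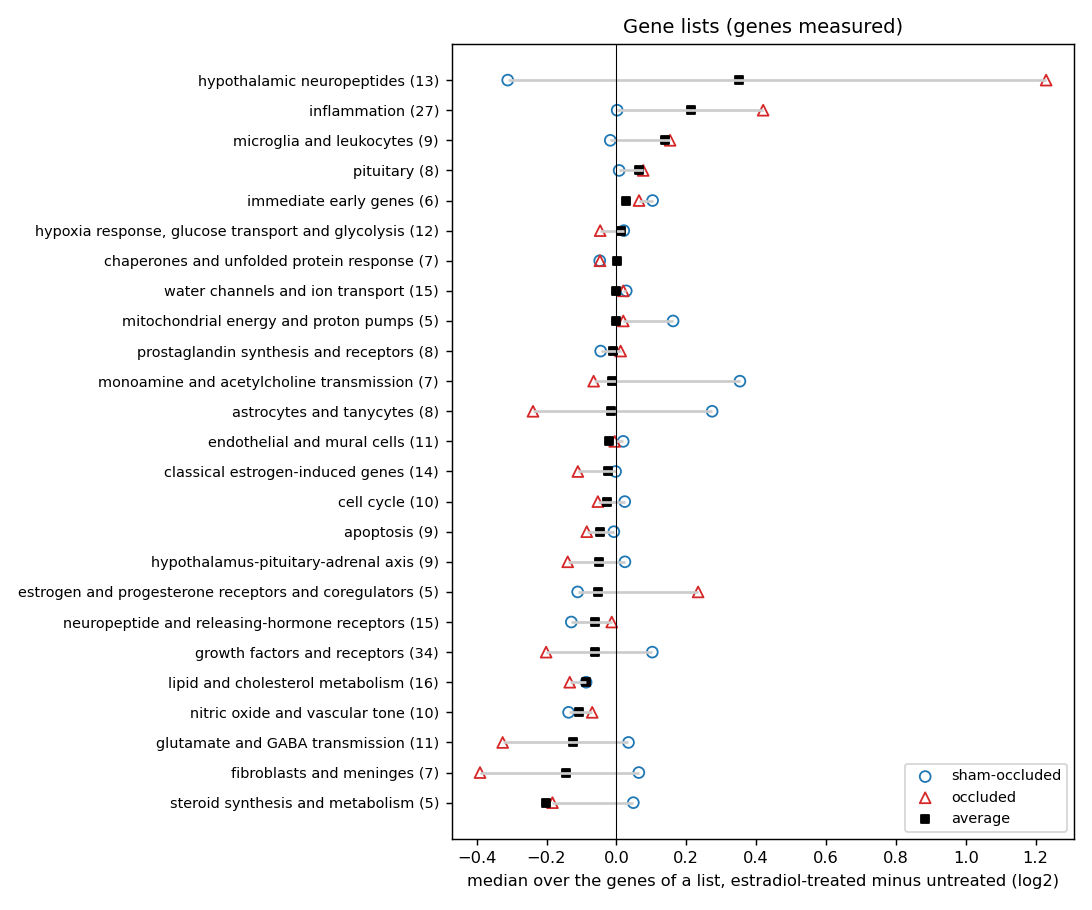
For each list with 5 or more measured genes (the number in parentheses), the x axis gives the median over its genes of the estradiol effect in log2 units in sham-occluded fetuses (circle), in occluded fetuses (triangle) and of the average (square). The neuropeptides run from -0.31 to 1.23 and the glutamate and GABA genes from 0.03 to -0.33. The medians of the lipid and cholesterol genes lie close together (-0.09 and -0.13), though only 8 of these 16 genes had the same sign in both strata.

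The test of the difference between strata called 3 of 12937 probes (0.0232%), all unnamed, with 1097 (8.48%) at an unadjusted p under 0.05, and in each the signs were opposed. A_70_P055401 stood at 0.58 ± 0.11 (SE) in sham-occluded and -0.71 ± 0.11 in occluded fetuses, a difference of -1.30 with an adjusted p of 0.016 (limma). A_70_P036801 stood at 0.38 and -0.69, and A_70_P005946 at 0.61 and -0.42. On the first 2 of these the groups did not overlap in either stratum and lay on opposite sides. That only describes their arrays, because the test had picked these probes from the same values. The share of all probes with such a pattern is not given. Each slide alone gave 0 calls, as did leaving out any 1 of control replicate 4, estradiol replicate 2, BCO replicate 3 and estradiol+BCO replicates 2, 3 and 4, while 1 was called without estradiol replicate 4 and 6 without BCO replicate 1. The other 8 fits that left out 1 array called 2 to 4 probes.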

How the data were processed

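Total RNA from each fetal hypothalamus was labelled with Cy3 and hybridised to a single-colour Agilent sheep array (RNA integrity 7.4 to 8.4), per the labels. Per the file headers, the authors read the arrays with Feature Extraction 10.1.1.1, and the deposited scanner files hold processed signals as intensity, already background-subtracted, and flags for each spot, which are values of another kind. A deposited series table of log2 values equals those signals on the log2 scale less each array's median, and served as an alternative. No aligner or genome build applies.

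Spots flagged by the software (2 to 36 per array) were set to missing, spots of a probe averaged, and each array's log2 intensity scaled by its 75th percentile. Probes well above background on at least 4 of 16 arrays were tested (12937 kept, 2071 left out). A model of the 4 groups and 2 slides, slides being read from the barcodes in the file names, was fitted in limma (3.58.1, R 4.3.3); its moderated tests were 2-sided, and p-values were adjusted by Benjamini-Hochberg over all tested probes in each of 4 contrasts. The script was tested on simulated data. P-values measure the spread between fetuses, and the number of arrays limits precision. A bound ("at least") sets the bright group's mean against the dimmest signal called above background on the dim group's arrays. Normexp used an offset of 50.

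Gene names are those of the files, updated where possible through RefSeq's sheep gene table (assembly ARS-UI_Ramb_v3.0, no coordinates used). Of 15008 probes, the table gave a name to 705 through an accession, to 502 through a symbol, to 142 through a gene ID and to 26 through a synonym; 210 stayed as in the files, 8 had conflicting names and were left unnamed, and 13415 had none. Named genes were the 10 lowest p on each side among named probes of shared direction, up to 3 members per list of 5 or more measured genes with an unadjusted p under 0.05, and a panel of hypothalamic and estrogen-related genes; 2 genes so chosen are not reported here. A list holds a gene by its brightest probe. The comparison, the gene lists and the panel were chosen with earlier results of these data known. Alternatives were other scalings, background correction, filters, blocks, moderation, each slide alone and each array left out.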

Additional observations from a re-analysis of the deposited data

Results flagged for a closer look

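Among 212 groups of 4 arrays tested for the probes named in the report, 14 held an array whose gap to its nearest neighbour, as a share of the group's range, was above Dixon's critical value, and chance flags about 1 in 20 groups. Of genes lower with estradiol, LMNB1 (A_70_P028307) stood at -1.63 on control replicate 3 against -2.01 to -1.94 on the other control arrays, MGLUR3 at -2.11 on BCO replicate 2 against -3.11 to -3.0, ASPM at -4.06 on estradiol+BCO replicate 2 against -3.71 to -3.66, and KIT at -6.69 on estradiol+BCO replicate 3 against -7.48 to -7.37. The first pair of these widened the estradiol difference, and so did ASPM. CPT1A stood at 0.0011 on BCO replicate 4 against 0.38 to 0.39.

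Of genes higher with estradiol, ATP6V1B2 stood at 2.39 on estradiol+BCO replicate 2 against 1.81 to 1.89, and ATXN2L at -6.18 on estradiol+BCO replicate 3 against -6.29 to -6.27. SLC6A4 stood at -8.02 on estradiol replicate 1, dimmer than the other estradiol arrays. SST stood at 1.77 on BCO replicate 4 against 2.96 to 3.08, and at 2.86 on estradiol+BCO replicate 3 against 4.15 to 4.40. TAC3 stood at -0.20 on estradiol replicate 2 against -2.41 to -2.15. ESR2 stood at -5.48 on control replicate 2 against -6.34 to -6.27, and at -5.98 on estradiol replicate 1 against -6.30 to -6.26. NPVF stood at -1.67 on BCO replicate 1 against -4.59 to -4.11.

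The estradiol effect differed between sham-occluded and occluded fetuses at 3 unnamed probes by the test of the difference (limma, Benjamini-Hochberg adjusted p = 0.016 for each), with differences of -1.08 for A_70_P036801, -1.30 for A_70_P055401 and -1.03 for A_70_P005946.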

How the results depend on the processing

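Over 28 alternatives, 44 of the 53 gene averages kept their sign in each. The count of called probes for the average effect (0) became 1 on slide 1 alone and ran from 0 to 1 over the 16 fits that left out 1 array. For estradiol against control (0) it became 1 on slide 2 alone. For estradiol+BCO against BCO (0) it became 14 on slide 2 alone and ran from 0 to 6 with 1 array left out. For the difference between strata (3) it became 1 without the slide block, 0 on slide 1 or slide 2 alone and 1 with normexp, and ran from 0 to 6 with 1 array left out. The 554 probes of shared direction became 346 on slide 1 alone and 289 with normexp, and 454 to 945 with 1 array left out. The 897 probes at an unadjusted p under 0.05 became 481 and 499, and 725 to 1459. Probes with no overlap in both strata (3) numbered 1 with median centring, normexp or the deposited value table. The cause of these shifts was not tested.

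Signs turned on slide 2 alone for IL1RN (-0.064), GAL (-0.18), ESR1 (-0.071), NR3C1 (0.19), POMC (-0.57) and NPVF (-0.089), and on slide 1 alone for ESR2 (-0.042). PGR turned on slide 1 alone (0.13) and with normexp (0.0053) and ran from -0.24 to 0.065 with 1 array left out. OXTR turned on slide 1 alone (0.15) and with median centring (0.0093), normexp (0.063), the value table (0.0068) and flagged spots kept (0.014), and ran from -0.24 to 0.12 with 1 array left out. With the replicate number as a block in place of slide, 0 probes were called for the average, 905 had an unadjusted p under 0.05 and 557 went the same way; deviations of same-numbered arrays correlated at -0.225 to 0.0060 and the block changed no call. Signal over background limits the dim probes: split into 4 equal classes of brightness, from dimmest to brightest, 206, 171, 117 and 60 probes went the same way.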

Other observations

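Other named probes went the same way in both strata and fall outside the rule for named genes; they were chosen after their values were seen, and none passed the test (smallest adjusted p over all probes 0.609, limma). Antimicrobial cathelicidins of neutrophils and bone marrow were lower, with BAC5 at -0.85 ± 0.34 (SE) and -0.81 ± 0.36 on its probes and CATHL3 at -0.97 ± 0.40. They stood at -1.51, -1.57 and -1.83 on slide 1 alone and at -0.19, -0.05 and -0.10 on slide 2 alone. ZFP36, which speeds the decay of cytokine messages, was higher at 1.1 ± 0.39 (1.37 in sham-occluded and 0.82 in occluded fetuses), interleukin 1 alpha (IL1A) at 0.78 ± 0.32 and the costimulatory ligand CD86 at 0.55 ± 0.21. With normexp correction these stood at 0.41, 0.30 and 0.25. ZFP36 stood at 1.42 on slide 1 alone and 0.77 on slide 2 alone, IL1A at 1.48 and 0.09, and CD86 at 0.85 and 0.25. The inducible nitric oxide synthase NOS2 was lower at -0.50 ± 0.21, interferon gamma (IFNG) at -0.38 ± 0.16 and the costimulatory ligand CD80 at -0.46 ± 0.18. Under normexp correction NOS2, IFNG and CD80 stood at -0.03, -0.15 and -0.12. The circadian clock gene PER2 was higher at 0.38 ± 0.15.

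Among other genes lower in both strata were the kinase AKT1 at -0.21 ± 0.08 (SE), the transforming growth factor beta receptor TGFBR2 at -0.36 ± 0.13, the hyaluronan receptor RHAMM at -0.32 ± 0.10 and the growth factor PDGFB at -0.44 ± 0.17. With normexp correction AKT1 stood at -0.12, TGFBR2 at -0.30, RHAMM at -0.25 and PDGFB at -0.26. HIF3A, a hypoxia-inducible factor subunit, was lower at -0.41 ± 0.14, and stood at -0.11 with normexp correction. Of 432 genes with several tested probes, 41 had a probe that went the same way in both strata, and in 29 of these all probes had the same sign.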
